A study of Homo sapiens with 8 samples.

Results

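PC-3 cells that received calcitriol and TGF-β1 together were compared with cells that received neither. This comparison used 4 of the 8 arrays in the series, 2 of the combination and 2 controls, and covered the 14793 protein-coding genes among 23854 genes tested. Its members were the features that the platform's probe table pairs with exactly 1 symbol. PC-3 is an established line derived from a bone metastasis of human prostate cancer and is often used as a model of disease that no longer depends on androgen. In the combination group calcitriol was given at 10 nM and TGF-β1 at 5 ng/mL for 24 h in serum-supplemented medium, and the control medium held neither agent. No vehicle for the controls is named in the labels. The other 4 arrays held calcitriol alone and TGF-β1 alone, at the same doses and time, 2 arrays each. The arrays were Clariom D, which measures the RNA of a whole culture, so fewer cells expressing a gene and less RNA per cell cannot be told apart. The labels state that the 2 arrays of a group are independent experiments, called replicates A and B here after the sample titles.

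Calcitriol is the hormonally active form of vitamin D. It binds the vitamin D receptor, which pairs with a retinoid X receptor on DNA, and the gene best known for its response is CYP24A1, whose product breaks calcitriol down. TGF-β1 binds the receptors TGFBR2 and TGFBR1, which phosphorylate SMAD2 and SMAD3, and these enter the nucleus with SMAD4 and switch on genes of the extracellular matrix together with inhibitors of the pathway itself. In normal epithelium TGF-β slows division, and in carcinoma cells it is also known for promoting a mesenchymal, invasive state.

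The combination arrays had the lowest contrast of the 8. The gap between the medians of the positive and the negative control features was 7.02 and 7.04 (log2) on the controls and 6.77 and 6.70 on the combination arrays. With 1 agent alone it was 6.93 and 7.02 for calcitriol and 6.91 and 6.94 for TGF-β1. Negative control features had a median of 2.61 in control and 2.75 in the combination, and positive ones 9.65 and 9.49. Across protein-coding genes the 2 controls correlated at r = 0.990, the 2 combination arrays at 0.992, and arrays of different groups in this comparison at 0.981 to 0.985. The median log2 change of protein-coding genes was -0.12, and cyclic loess over these genes, which evens out the arrays at every signal level, brought it to -0.004. Every log2 change below is on the deposited scale and stands against that median of -0.12, and a fall is described as holding under both scalings only if it also passed after loess.

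**Figure D1:**
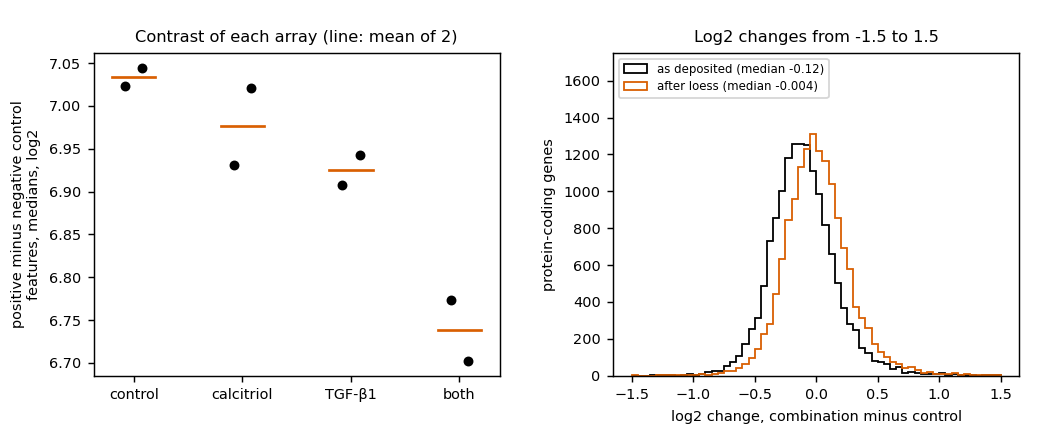
Left, the gap between positive and negative control features (log2) for each of the 8 arrays by group, with a line at the mean of 2 arrays. Right, the number of protein-coding genes by log2 change, combination minus control, as deposited (median -0.12) and after cyclic loess (median -0.004). The combination arrays lie at 6.77 and 6.70, under all 6 others, and loess moves the distribution up by about its offset.

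With both agents, 150 protein-coding genes rose and 244 fell. Here and below a gene changed if its adjusted p was under 0.05 in limma, two-sided, with Benjamini-Hochberg adjustment over all 23854 genes. The 394 genes are 2.66% of those tested, 1.01% higher and 1.65% lower, and these shares are the background for each list of genes that follows. All 150 rises passed after loess as well (1.01%), for 279 changes under both scalings (1.89%). These counts include 8 genes whose mean level lay under the background of negative control features in both groups, such as SULT1B1 and SULT1E1. Without them 271 changes remain, 144 higher and 127 lower. Of the 244 falls, 129 passed under both scalings (0.872%), and the other 115 did not. The lost falls were smaller, with a median log2 change of -0.58 against -0.80 for the falls that held, at similar control levels (medians of 8.08 and 7.95). After loess alone 298 genes rose and 131 fell (2.01% and 0.886%), with each array centred on its protein-coding median 250 rose and 132 fell, and with arrays rescaled to equal contrast 223 rose and 170 fell. The split between rises and falls thus depends on the scaling. The estimated change was at least 2-fold for 51 rises and 34 falls, 31 of these falls under both scalings. These estimates take no account of background. They include SERPINB4 and CYP46A1, for which only falls of at least 1.53-fold and 1.25-fold can be given.

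**Figure D2:**
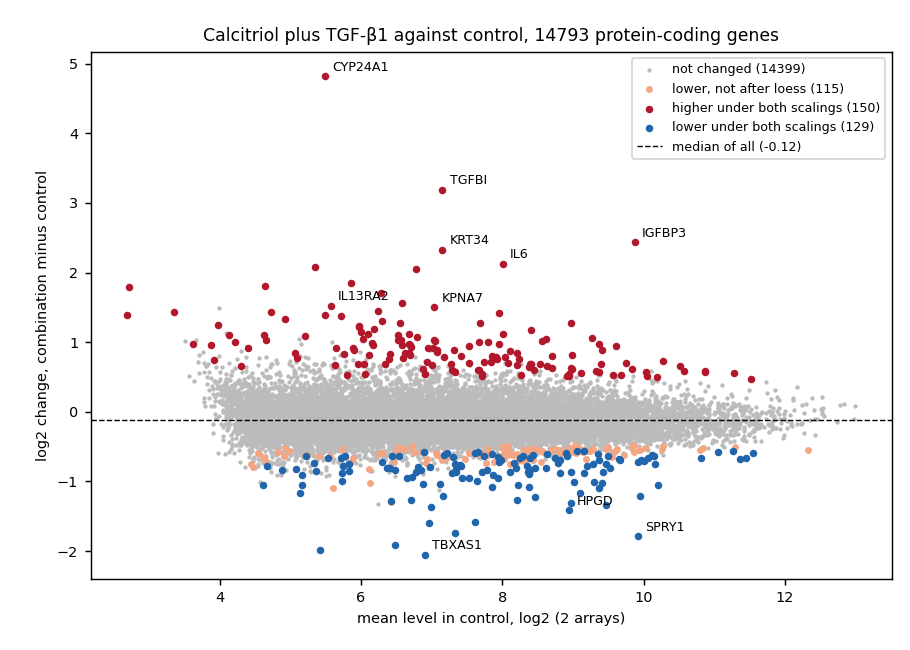
Log2 change with both agents (combination minus control, vertical axis) against the mean log2 level of the 2 controls (horizontal axis) for 14793 protein-coding genes. Red points rose (150) and blue points fell (129) under both scalings, orange points fell only before loess (115), and the dashed line marks the median of -0.12. The lost falls lie in the band closest to the median, at about the same control levels as the blue points.

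How many genes pass depends on single arrays. Without combination replicate A 13 protein-coding genes passed, without replicate B 15 and without control replicates B and A 22 and 127. Leaving out a calcitriol array left 169 and leaving out a TGF-β1 array 128, since those arrays feed the shared estimate of spread. In 19 alternative fits 10 protein-coding genes passed every time. The 7 that rose were CYP24A1, TGFBI, IGFBP3, KRT34, IL6, IL13RA2 and KPNA7, and the 3 that fell were TBXAS1, SPRY1 and HPGD. Arrays that merely fail to overlap are no measure of change here, since the 2 combination arrays lay outside the range of the 2 controls for 57.7% of protein-coding genes. An exact permutation of group labels over 2 against 2 arrays can give no p under 0.333.

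CYP24A1, the 24-hydroxylase that inactivates calcitriol, rose most. Its levels were 5.48 and 5.51 in control replicates A and B and 10.92 and 9.71 in combination replicates A and B. The rise was 28.3-fold (log2 change 4.82 ± 0.35, adjusted p = 0.00297, where ± is the SE here and below, n = 2 per group). The combination arrays differed from each other by more than the controls did, with replicate A the higher, yet both lay far above control. TGFBI, a matrix protein that cells secrete in response to TGF-β, read 7.30 and 7.01 in control and 10.37 and 10.31 with both agents. It rose 9.1-fold (log2 change 3.19 ± 0.14, adjusted p = 0.000383), and its combination arrays were nearly equal. IGFBP3, the main carrier of insulin-like growth factors in blood, was already abundant, at 9.84 and 9.92 in control and 12.42 and 12.22 with both agents. It rose 5.42-fold (log2 change 2.44 ± 0.11, adjusted p = 0.000383). IL6, an inflammatory cytokine that prostate cancer cells can secrete, read 8.01 and 8.01 in control and 10.32 and 9.94 with both agents and rose 4.36-fold (log2 change 2.13 ± 0.15, adjusted p = 0.00275). In each of these 4 genes the lower combination array stood well above the higher control array, though groups that do not overlap are part of the rule that chose them.

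KRT34, a type I keratin of hair, rose 5.01-fold from 7.03 and 7.28 to 9.59 and 9.37 (log2 change 2.33 ± 0.14, adjusted p = 0.00113). Both integrin beta subunits among the largest rises partner the alpha V subunit. ITGB3 read 5.05 and 5.66 in control and 7.36 and 7.50 with both agents (log2 change 2.07 ± 0.19, adjusted p = 0.00715). ITGB6, whose heterodimer activates latent TGF-β, read 7.10 and 6.46 in control and 8.83 and 8.84 with both agents (log2 change 2.05 ± 0.20, adjusted p = 0.00723). For both genes the 2 controls lay further apart than the 2 combination arrays, by much less than the change itself. SGK1, a kinase of ion transport and cell survival, rose 3.59-fold, and PRDM1, a transcriptional repressor, rose 3.26-fold (log2 changes 1.84 and 1.70, adjusted p = 0.00941 and 0.00723). FGF5, a growth factor of the fibroblast family, read 6.65 and 6.53 in control and 8.14 and 8.17 with both agents, with the 2 combination arrays almost alike (log2 change 1.57 ± 0.14, adjusted p = 0.00665). IL13RA2, a decoy receptor for interleukin 13, rose from a low level of 5.56 and 5.59 to 6.99 and 7.20 (log2 change 1.52 ± 0.11, adjusted p = 0.00297). KPNA7, an importin alpha that carries proteins into the nucleus, showed little spread, at 7.05 and 7.02 in control and 8.55 and 8.53 with both agents (log2 change 1.50 ± 0.10, adjusted p = 0.00182).

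PTGS2, the inducible cyclooxygenase, rose 2.67-fold (1.42) and DUSP1, a phosphatase that switches off MAP kinases, 2.46-fold (1.30). ADAMTS6, a secreted metalloprotease, rose by 1.39 and PPBP, a platelet chemokine, by 1.33. TCP11L1 rose by 1.38. CDH6, a cadherin of kidney and nervous tissue, read 4.84 and 4.44 in control and 6.56 and 6.33 with both agents and was above the background of negative control features on 1 of 2 control arrays (adjusted p = 0.00723). ACTBL2, an actin-like gene that shares sequence with other actins, read 4.75 and 4.70 in control and 6.02 and 6.30 with both agents, likewise with 1 control array above background. Probes for it may not be separated from its paralogs. For MYH16, a myosin heavy chain gene, the feature used gave 1.45, and 3 other features gave changes from 0.015 to 2.34, so its size is uncertain.

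**Figure D3:**
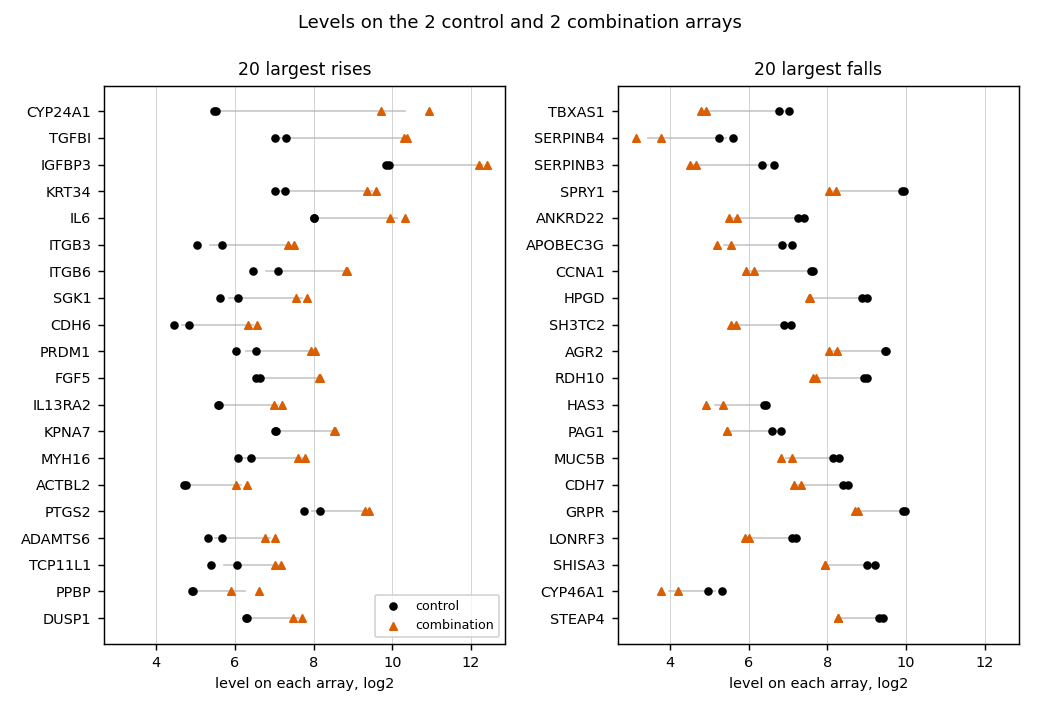
Log2 level on each of the 2 control arrays (circles) and 2 combination arrays (triangles) for the 20 largest rises, left, and the 20 largest falls, right, with a grey line from mean to mean. The groups do not overlap for any of the 40 genes, which is part of the rule that chose them. The combination arrays of CYP24A1 lie further apart than those of any other gene shown.

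TBXAS1, the thromboxane synthase, was lower, at 7.03 and 6.77 in control and 4.90 and 4.80 with both agents (adjusted p = 0.00113). Of its 2 combination arrays 1 lay above background, so the size of its fall and its rank among the falls are not settled. SERPINB4 and SERPINB3 inhibit proteases and are so alike that probes may cross between them. SERPINB3 went from 6.63 and 6.34 to 4.66 and 4.49 and SERPINB4 from 5.60 and 5.25 to 3.13 and 3.76. Both were at background on each combination array, which makes SERPINB3 at least 3.18-fold lower (adjusted p = 0.0182) and SERPINB4 at least 1.53-fold lower (adjusted p = 0.0126). SPRY1, which restrains growth factor signalling through RAS and ERK, was an abundant gene that fell 3.44-fold, with levels of 9.90 and 9.94 in control and 8.05 and 8.23 with both agents (log2 change -1.78 ± 0.10, adjusted p = 0.00113). HPGD, which inactivates prostaglandins, fell 2.67-fold from 9.01 and 8.89 to 7.55 and 7.52 (log2 change -1.41 ± 0.10, adjusted p = 0.00297). In both genes the 2 arrays of a group lay close together relative to the fall. CCNA1, the cyclin A of the germ line, fell from 7.64 and 7.59 to 5.93 and 6.14 (log2 change -1.58 ± 0.12, adjusted p = 0.0034). APOBEC3G, a DNA cytidine deaminase that restricts retroviruses and has close paralogs, fell from 6.85 and 7.09 to 5.54 and 5.20 (log2 change -1.60 ± 0.15, adjusted p = 0.00715).

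AGR2, a disulfide isomerase of mucus-making cells, read 9.46 and 9.49 in control and 8.04 and 8.24 with both agents (log2 change -1.33 ± 0.11, adjusted p = 0.00404). MUC5B, a gel-forming mucin, fell by 1.26 ± 0.14 (adjusted p = 0.00941). RDH10, which makes retinal from retinol, fell by 1.30 ± 0.10 (adjusted p = 0.0034), and HAS3, a hyaluronan synthase, fell by 1.28 (adjusted p = 0.0113). STEAP4, a metalloreductase, fell by 1.09 ± 0.10 (adjusted p = 0.00713). GRPR, the receptor for gastrin-releasing peptide and a known target for prostate tumour imaging, was high in control at 9.98 and 9.92 and fell to 8.71 and 8.77 (log2 change -1.21 ± 0.10, adjusted p = 0.00404). The remaining members were ANKRD22 (-1.74), SH3TC2 (-1.37), the CSK-binding adaptor PAG1 (-1.26), the cadherin CDH7 (-1.22), LONRF3 (-1.20) and SHISA3 (-1.16), an inhibitor of Wnt and FGF receptors. CYP46A1, cholesterol 24-hydroxylase, read 4.97 and 5.31 in control and 4.19 and 3.77 with both agents. It was at background with both agents and at least 1.25-fold lower (adjusted p = 0.0226).

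Promoters of 2 of the largest rises and 2 of the largest falls are shown because SMAD, AP-1 and vitamin D receptor sites are the elements through which these agents are known to act. They are the 250 bases upstream of the RefSeq gene start (GRCh38.p14), 5′ to 3′ on the strand of the gene. TGFBI lies at chr5:136028738-136028987 on the plus strand, IGFBP3 at chr7:45921273-45921522 on the minus strand, TBXAS1 at chr7:139829014-139829263 and SPRY1 at chr4:123396545-123396794, both on the plus strand. SERPINB3 and SERPINB4 were left out of this choice as near-identical copies. Capitals mark a match to TGANTCA, the AP-1 element, or CAGAC, the SMAD box, on either strand.
TGFBI: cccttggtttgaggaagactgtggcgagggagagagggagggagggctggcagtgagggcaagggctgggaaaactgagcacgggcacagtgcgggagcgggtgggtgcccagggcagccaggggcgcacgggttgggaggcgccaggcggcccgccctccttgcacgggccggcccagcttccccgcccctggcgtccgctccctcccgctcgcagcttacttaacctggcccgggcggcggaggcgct
IGFBP3: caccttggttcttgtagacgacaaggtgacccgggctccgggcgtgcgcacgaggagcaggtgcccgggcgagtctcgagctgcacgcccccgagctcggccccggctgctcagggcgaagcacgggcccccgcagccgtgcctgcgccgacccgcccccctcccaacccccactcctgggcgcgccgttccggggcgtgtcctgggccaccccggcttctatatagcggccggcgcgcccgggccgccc
TBXAS1: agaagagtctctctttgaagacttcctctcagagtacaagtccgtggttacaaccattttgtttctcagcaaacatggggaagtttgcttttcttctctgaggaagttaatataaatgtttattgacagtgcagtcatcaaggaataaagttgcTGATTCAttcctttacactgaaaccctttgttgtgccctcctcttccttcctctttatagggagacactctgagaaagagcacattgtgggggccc
SPRY1: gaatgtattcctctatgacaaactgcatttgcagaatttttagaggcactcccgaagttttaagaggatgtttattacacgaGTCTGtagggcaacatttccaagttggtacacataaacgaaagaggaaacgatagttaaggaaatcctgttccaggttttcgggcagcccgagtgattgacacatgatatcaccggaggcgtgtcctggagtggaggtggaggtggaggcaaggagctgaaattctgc
Neither riser held a match in this window. TBXAS1 held an AP-1 element at positions -96 to -90 from the gene start, and SPRY1 a SMAD box on the reverse strand at -168 to -164. Of 12035 tested protein-coding genes with a promoter in the table, 4.52% held the AP-1 element, 36.6% the SMAD box and 0.15% the direct repeat called DR3, which the vitamin D receptor prefers, all on both strands. Among 119 genes that rose under both scalings the shares were 5.88%, 42.9% and 0 genes, and among 92 that fell 2.17%, 40.2% and 0 genes. These are the members with a promoter available, out of 150 rises and 129 falls. CYP24A1, the largest rise, had none and was not scanned, so the count of 0 genes with DR3 does not cover it. A match is a letter string and not evidence of binding.

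In the vitamin D system itself the catabolic enzyme alone passed the test. Of 11 genes tested for the receptor, its partners and the vitamin D hydroxylases, CYP24A1 rose and 0 fell. At an unadjusted p under 0.05 limma gave 1 higher and 2 lower. VDR, the receptor, read 9.53 and 9.52 in control and 9.11 and 9.23 with both agents (log2 change -0.36 ± 0.10, adjusted p = 0.0958), and after loess its change was -0.24 (adjusted p = 0.198). Its partner RXRA (-0.09, adjusted p = 0.675) and CYP27B1, which makes calcitriol (0.05, adjusted p = 0.847), did not pass. Of 31 known receptor targets 7 rose and 3 fell, all under both scalings, with a list median of -0.04. CDKN1A, an inhibitor of cyclin-dependent kinases, rose by 1.08 (adjusted p = 0.0161), and the ribosome assembly factor EFL1 by 0.91, the protease inhibitor CST6 by 0.88, the NF-κB inhibitor TNFAIP3 by 0.76 and the phosphatase DUSP10 by 0.68. Besides HPGD, the gluconeogenic enzyme FBP1 fell by 0.89 and CLMN fell by 0.66. The list thus moved both ways, and 21 of its members did not pass. Which agent moved each member within the combination was not tested, but each agent alone was tested against the same controls in limma. CYP24A1 changed by 4.46 under calcitriol alone (adjusted p = 0.0247) and 0.74 under TGF-β1 alone (adjusted p = 0.452). For CDKN1A these values were 0.14 and 1.09 (adjusted p = 0.855 and 0.0245). For HPGD they were -0.27 and -1.94 (adjusted p = 0.655 and 0.00105), and for the list median 0.04 and -0.10.

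In the TGF-β pathway 4 of 26 SMADs and regulators and 18 of 34 target genes rose, and SMAD2, SMAD3 and SMAD4 of its signalling core did not pass the test. Of 32 ligands, receptors and latency proteins 3 rose and 2 fell. The rises were LTBP2 (1.04), which is related to the proteins that store TGF-β in the matrix, the BMP receptor BMPR2 (0.84) and INHBA, the activin A subunit (0.57). INHBB, the activin B subunit, fell by 1.04 ± 0.10 (adjusted p = 0.00723). TGFBR2 fell from 9.91 and 9.82 to 9.30 and 9.29 (log2 change -0.57, adjusted p = 0.0427), and not after loess (adjusted p = 0.0584). TGFBR1 read 7.65 and 7.37 in control and 7.80 and 7.86 with both agents and did not pass (log2 change 0.32 ± 0.13, adjusted p = 0.179). Of 26 SMADs and regulators 4 rose and 0 fell, and all 4 are negative regulators of the pathway: SKIL (1.02), SMAD7 (0.96), PMEPA1 (0.95) and SMURF2 (0.57). SMAD7 read 6.65 and 6.52 in control and 7.44 and 7.67 with both agents (adjusted p = 0.0187), and another feature of it gave 0.48. SMAD2 was at -0.21 (adjusted p = 0.309), SMAD3 at 0.05 (adjusted p = 0.81) and SMAD4 at -0.00 (adjusted p = 0.994).

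Of 34 TGF-β target genes 18 rose and 0 fell, the largest share among the 51 lists examined, with a median log2 change of 0.65 (0.76 after loess) against -0.12 for all protein-coding genes. The lists were written with earlier results of these data known, so this rank and the counts of this list are descriptions only. At an unadjusted p under 0.05 limma gave 24 higher and 0 lower. After TGFBI and ITGB6 the largest were fibronectin, FN1, from 8.93 and 9.01 to 10.29 and 10.22 (log2 change 1.28 ± 0.12, adjusted p = 0.00723), and JUNB, a subunit of AP-1, from 6.23 and 6.13 to 7.32 and 7.44 (log2 change 1.20 ± 0.12, adjusted p = 0.00723). COL5A1 (1.11), the adhesion protein AMIGO2 (1.11), RHOB, a small GTPase of actin organisation (0.83), TPM1 (0.76), TAGLN (0.71), VEGFA (0.69) and SNAI2 (0.58) also rose. Textbook targets that did not pass include CCN2 (-0.02, adjusted p = 0.958), COL1A1 (-0.33, adjusted p = 0.238), CDKN2B (0.06, adjusted p = 0.779) and SNAI1 (0.25, adjusted p = 0.463). THBS1 stood at 12.13 and 12.20 in control and 12.51 and 12.53 with both agents (adjusted p = 0.086).

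Matrix and adhesion genes rose in part. Of 35 collagens, laminins and matricellular proteins 6 rose and 1 fell. The proteoglycans SPOCK1 (1.24) and VCAN (1.14), matrilin 2, MATN2 (0.81), and COL6A3 (0.70) rose beside FN1 and COL5A1, and COL5A2 fell by 0.62 before loess only. Among 17 integrins 3 rose, ITGB3, ITGB6 and their partner ITGAV, from 8.44 and 8.45 to 9.02 and 9.07 (log2 change 0.60 ± 0.09, adjusted p = 0.0298). ITGB4, the subunit of hemidesmosomes, fell by 0.55 before loess only, and ITGA5 missed the threshold (0.44, adjusted p = 0.0616). Of 32 matrix proteases and inhibitors 5 rose and 0 fell: ADAMTS6, the protease nexin SERPINE2 (1.27), ADAMTS1 (0.79), TIMP1 (0.73) and PLAU, urokinase (0.47). Of 18 collagen-modifying enzymes P4HA3, a collagen prolyl hydroxylase above background on 1 control array, read 4.45 and 4.81 in control and 5.87 and 5.58 with both agents (adjusted p = 0.0319). Of 29 actin and contractility genes 5 rose, among them CALD1 (0.72) and PALLD (0.69), and 0 fell (median 0.13, or 0.24 after loess).

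Genes that define the epithelial or mesenchymal state mostly did not pass. Of 20 transcription factors and cadherins of the epithelial to mesenchymal transition, SNAI2 alone rose and 0 fell (median -0.10). CDH1, E-cadherin, read 9.36 and 9.22 in control and 9.41 and 9.02 with both agents (-0.08, adjusted p = 0.779). CDH2, N-cadherin, read 9.07 and 8.91 in control and 9.39 and 9.46 with both agents (adjusted p = 0.0721) and passed after loess (0.56, adjusted p = 0.034). VIM, vimentin, was 0.17 (adjusted p = 0.355) and ZEB1 0.30 (adjusted p = 0.2). Of 29 junction genes TJP1 rose (0.58, with 1.79 on another feature), and GJB2, connexin 26, fell by 0.49 before loess only. Of 17 keratins and other intermediate filaments 2 rose, KRT34 and the simple epithelial keratin KRT7 (0.56, for which another feature gave -0.21).

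Growth factor genes moved in opposite directions within the same pathway. Of 30 genes for EGF receptors, their ligands and MAP kinase feedback 3 rose and 4 fell, all under both scalings, and 21 lay below the protein-coding median (list median -0.30, or -0.20 after loess). Among feedback inhibitors of the ERK branch SPRY1 fell most, followed by DUSP6, an ERK phosphatase, from 9.15 and 9.24 to 8.35 and 8.50 (log2 change -0.77 ± 0.11, adjusted p = 0.0219). ETV1, an ETS factor, fell by 0.80 ± 0.11 (adjusted p = 0.0199) and PHLDA1 fell by 0.67. The phosphatases DUSP1 and DUSP10, which act chiefly on the stress kinases, rose, as did the EGF receptor ligand HBEGF, from 7.04 and 6.86 to 7.82 and 7.90 (log2 change 0.92 ± 0.11, adjusted p = 0.0136). EGFR itself did not pass (-0.08, adjusted p = 0.637). Of 19 IGF system genes 3 rose and 0 fell, IGFBP3, the receptor IGF1R (0.97) and the mRNA-binding protein IGF2BP3 (0.54). IGF1R read 7.89 and 8.03 in control and 8.90 and 8.95 with both agents (adjusted p = 0.00868), so a receptor and a carrier of the same ligands rose together. Of 25 FGF, VEGF and PDGF genes FGF5 and VEGFA rose and 0 fell.

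Enzymes at both ends of the prostaglandin pathway changed. Of 21 genes 1 rose and 3 fell (median -0.23, or -0.12 after loess). PTGS2, which commits arachidonic acid to prostaglandins, rose from 8.16 and 7.75 to 9.32 and 9.42 (log2 change 1.42 ± 0.14, adjusted p = 0.00771), while HPGD, which degrades the products, and TBXAS1, which diverts them to thromboxane, fell. PTGFR, the prostaglandin F receptor, fell by 0.87 ± 0.11 (adjusted p = 0.0152). PTGES, a prostaglandin E synthase (-0.23, adjusted p = 0.396), and the E2 receptor PTGER4 (-0.22, adjusted p = 0.223) did not pass.

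Of 38 cytokines, chemokines and their receptors 4 rose and 0 fell. They were IL6, IL13RA2, IL1B, from 9.38 and 9.36 to 10.29 and 10.38 (log2 change 0.97 ± 0.10, adjusted p = 0.00723), and CSF1, the macrophage growth factor, from 6.98 and 7.06 to 8.01 and 7.87 (log2 change 0.92 ± 0.11, adjusted p = 0.0136). CXCL8, an abundant chemokine of these cells, did not pass (-0.37, adjusted p = 0.121). Of 18 NF-κB genes TNFAIP3 rose and 0 fell. In the list of 34 interferon response and antigen presentation genes both ligands of the immune checkpoint receptor PD-1 rose, CD274 from 6.90 and 7.25 to 7.99 and 7.88 (log2 change 0.86 ± 0.13, adjusted p = 0.0283) and PDCD1LG2 from 6.80 and 6.58 to 7.46 and 7.55 (log2 change 0.82 ± 0.12, adjusted p = 0.0267). IFIT1 fell by 0.69 before loess only, and the list median was -0.18. Of 7 cytidine deaminases 3 fell and 0 rose, and 6 lay below the protein-coding median (list median -0.59, or -0.49 after loess). Beside APOBEC3G these were APOBEC3C (-0.59) and, before loess only, APOBEC3D (-0.56), and probes for this family may cross between its members.

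Among genes of cell division few passed the test singly, although most lay below the protein-coding median. Of 45 mitosis genes 39 lay below the protein-coding median and the list median was -0.35, or -0.23 after loess. CDC25B, a phosphatase that triggers mitosis, fell by 0.64 ± 0.11 (adjusted p = 0.0344), and 0 rose. At an unadjusted p under 0.05 limma gave 30 lower and 0 higher, against 20.1% lower and 5.38% higher for all protein-coding genes. MKI67 read 10.65 and 10.78 in control and 10.25 and 10.34 with both agents (-0.42, adjusted p = 0.0754), TOP2A -0.42 (adjusted p = 0.0681) and PLK1 -0.42 (adjusted p = 0.0793), none of which passed. The lower contrast of the combination arrays goes with these medians, and its part in them was not tested beyond the loess values given. Of 40 DNA replication and repair genes 32 lay below the median (list median -0.22, or -0.11 after loess), and LIG1, DNA ligase I, was lower. LIG1 read 5.80 and 5.65 in control and 4.75 and 4.71 with both agents, with 1 combination array above background (adjusted p = 0.0152). PCNA did not pass (-0.10, adjusted p = 0.579). Of 28 cell cycle regulators CDKN1A rose, from 6.71 and 6.86 to 7.73 and 8.00, and MYC and CDK4 fell. MYC, which drives growth, went from 9.41 and 9.53 to 8.68 and 8.77 (log2 change -0.74 ± 0.12, adjusted p = 0.0275), and CDK4, a G1 kinase, from 10.12 and 10.16 to 9.44 and 9.59 (log2 change -0.63 ± 0.11, adjusted p = 0.037). CCND1, its cyclin, did not pass (0.00, adjusted p = 0.992).

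The lists of histones, cholesterol synthesis, aminoacyl-tRNA synthetases, proteasome, apoptosis and Notch genes held 0 changed members in limma. At an unadjusted p under 0.05 they gave 2 higher and 10 lower of 26, 1 and 11 of 28, 1 and 6 of 17, 1 and 8 of 28, 6 and 10 of 34, and 2 and 6 of 26, in that order. After loess 1 histone gene, 1 apoptosis gene and 2 Notch genes rose, and 0 genes of the other 3 lists changed. Over all protein-coding genes loess raised the number of rises from 150 to 298 (1.01% to 2.01%). Among cytokines it went from 4 to 7 and among matrix proteases from 5 to 8. Among collagens, laminins and matricellular proteins it went from 6 to 9, and among TGF-β targets from 18 to 20. These gains are therefore not particular to those lists. Of 32 ribosome biogenesis genes EFL1 rose and 0 fell (median -0.24, or -0.13 after loess). EFL1 went from 5.90 and 5.87 to 6.89 and 6.70 (log2 change 0.91 ± 0.12, adjusted p = 0.0199), in the direction opposite to the list median, and has a near-identical copy from which the probes may not separate it. Of 30 lysosome and autophagy genes GABARAPL1, a protein of the autophagosome membrane, rose from 6.72 and 6.38 to 7.69 and 7.97 (log2 change 1.28 ± 0.15, adjusted p = 0.0135), and 0 fell.

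The metabolic genes that passed were lower, with VEGFA the exception in the hypoxia list. Of 31 NRF2 and glutathione genes 2 fell. SLC7A11, the cystine importer that feeds glutathione synthesis, fell from 9.05 and 8.98 to 8.10 and 7.91 (log2 change -1.01 ± 0.11, adjusted p = 0.00876), and it was also the only change among 28 amino acid and glucose transporters. GSR, glutathione reductase, fell by 0.73 before loess only. In the list of 35 amino acid and unfolded protein stress genes PSAT1, an enzyme of serine synthesis, fell by 0.70 ± 0.11 (adjusted p = 0.0291), and MTHFD2 fell by 0.55 before loess only. ATF4, which controls both genes, did not pass (-0.35, adjusted p = 0.0982). Of 36 glycolysis and hypoxia genes 4 fell and 1 rose. FBP1, the carbonic anhydrase CA12 (-0.78) and the stress gene NDRG1 (-0.74) fell under both scalings, PFKM fell by 0.56 before loess only, and VEGFA rose. LDHA stood at 12.23 and 12.24 in control and 12.33 and 12.34 with both agents (0.10, adjusted p = 0.56).

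Signalling and differentiation lists held scattered changes. Of 35 Wnt genes the receptor FZD4 fell by 0.96 ± 0.12 (adjusted p = 0.0138) and the ligand WNT7B fell by 0.80 ± 0.13 (adjusted p = 0.0336). Of 26 Hippo genes VGLL3, a cofactor of TEAD factors, rose by 1.03 and FRMD6 by 0.89, while WWTR1, the TEAD coactivator TAZ, fell by 0.81 ± 0.11 (adjusted p = 0.0183). Of 26 AP-1 and immediate early genes JUNB and BHLHE40 (0.81) rose and FOSL1 fell by 0.57, so members of the AP-1 family moved both ways. BHLHE40 is also a clock repressor, and of 19 clock genes it rose while NPAS2, a paralog of the activator CLOCK, fell by 0.67. Of 44 guidance genes SEMA3C (0.53) and SEMA7A (0.52) rose, and SEMA3A (-0.71, with -0.24 on another feature) and the ephrin receptor EPHB4 (-0.67) fell.

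Of 22 luminal prostate and androgen-response genes 1 rose and 4 fell. STEAP4 and NDRG1 fell under both scalings, and PMEPA1 rose. HOXB13, the homeobox factor of prostate, went from 7.89 and 7.76 to 7.23 and 7.24 (log2 change -0.60 ± 0.11, adjusted p = 0.0424) and FOXA1 fell by 0.48, both before loess only, and HOXB13 was the only change among 21 HOX genes. Of 39 retinoid and steroid genes 2 were counted as higher and 3 as lower. RDH10 fell under both scalings, and the steroid sulfatase STS (-0.60) and PPARG (-0.48) before loess only. The 2 counted as higher, the sulfotransferases SULT1B1 and SULT1E1, were at background on all 4 arrays and passed the filter on low values through treated arrays alone, so neither is described as a rise and no size is given. Of 44 genes of hyaluronan, proteoglycans and sulfation VCAN rose, and HAS3 and the extracellular sulfatase SULF2 (-0.66) fell. HAS3 read 6.45 and 6.39 in control and 5.36 and 4.92 with both agents. Of 7 clade B serpins SERPINB3 and SERPINB4 fell and 0 rose.

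**Figure D4:**
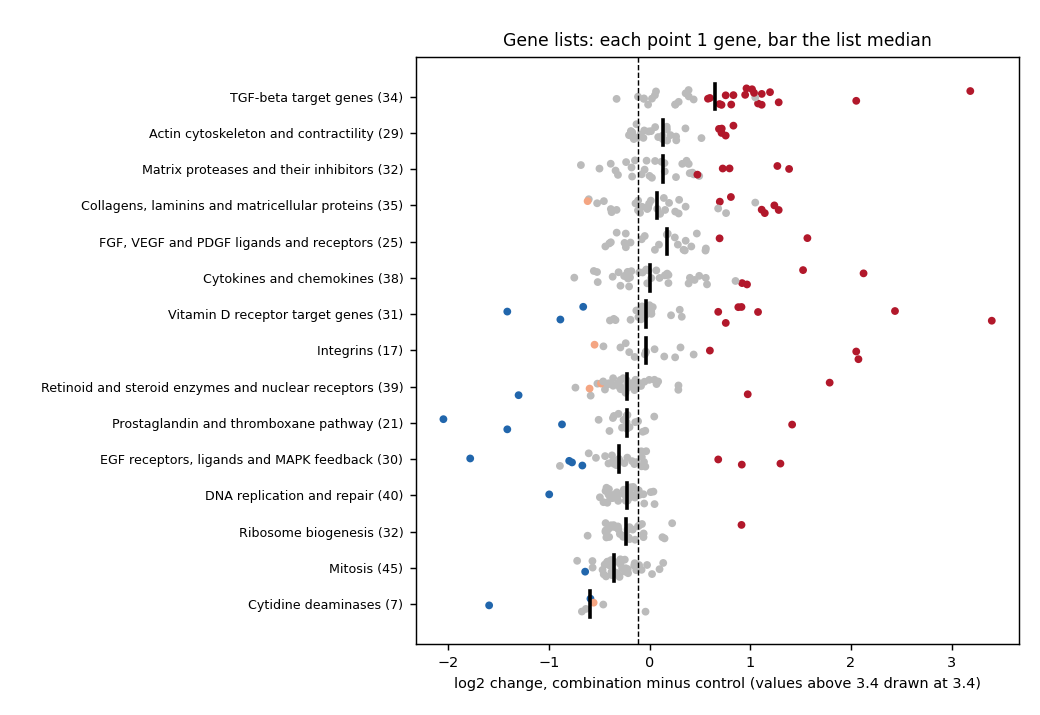
Log2 change with both agents (combination minus control) for each tested gene of 15 lists, with the number tested in brackets, a bar at the list median and a dashed line at the protein-coding median of -0.12. Red points rose and blue points fell under both scalings, orange points fell before loess only and grey points did not pass. TGF-β targets lie furthest to the right with a median of 0.65, cytidine deaminases furthest to the left with -0.59, and CYP24A1 (4.82) is drawn at 3.4.

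A further 5 families were listed after values had been seen, so their counts are descriptions only. Of 13 hair keratins 4 rose, KRT34, KRT85, KRT31 (0.89) and KRT83 (0.77), and 0 fell. KRT85 read 7.75 and 7.58 in control and 8.48 and 8.85 with both agents (adjusted p = 0.0306). Of 4 chorionic gonadotropin beta genes, near-identical copies that probes may not separate, 3 rose and 0 fell: CGB8 (1.12), CGB1 (1.11) and CGB2 (0.98). CGB8 read 6.62 and 6.74 in control and 7.75 and 7.84 with both agents (log2 change 1.12 ± 0.13, adjusted p = 0.0133). Of 18 secretory epithelial genes 5 fell and 0 rose, with AGR2, MUC5B, the vitamin B12 binder TCN1 (-1.08), the oviduct glycoprotein OVGP1 (-0.95) and the epithelial factor ELF3 (-0.63). Of 17 folate and one-carbon genes 4 fell and 0 rose, with the folate carrier SLC19A1 (-0.88) and the glycine decarboxylase GLDC (-0.72) beside PSAT1 and MTHFD2. Of 26 G protein-coupled receptors 3 rose and 7 fell. S1PR1, a sphingosine phosphate receptor, rose from 7.08 and 7.03 to 8.00 and 8.13 (log2 change 1.01 ± 0.11, adjusted p = 0.00991), and the adenosine receptor ADORA2B fell from 7.72 and 7.57 to 6.61 and 6.69 (adjusted p = 0.0257).

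A few other changed genes were also picked after their values were seen. CPT1A, which admits fatty acids to mitochondria, fell by 0.88 ± 0.12 (adjusted p = 0.0209), the lipid droplet protein PLIN2 fell by 0.77 ± 0.13 (adjusted p = 0.0355) and SCARB1, the HDL receptor, fell by 0.69 ± 0.10 (adjusted p = 0.0227). Among abundant mitochondrial genes the chaperone HSPD1 read 11.29 and 11.25 in control and 10.72 and 10.69 with both agents and the cytochrome c1 gene CYC1 10.17 and 10.08 in control and 9.47 and 9.55 with both agents (log2 changes -0.56 and -0.62, adjusted p = 0.0336 and 0.0289). These 5 genes fell under both scalings. CD24, a surface glycoprotein, rose from 9.23 and 9.31 to 10.45 and 10.21 (log2 change 1.06 ± 0.12, adjusted p = 0.0108), and INPP4B, a phosphoinositide phosphatase often lost in prostate cancer, from 8.67 and 8.14 to 9.64 and 9.51 (log2 change 1.17 ± 0.17, adjusted p = 0.0232). MYO10, the myosin of filopodia, rose by 1.05 (adjusted p = 0.0199).

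The same 2 controls serve the comparisons with each agent alone, so the 3 sets of log2 changes share them and are only set side by side. In limma calcitriol alone changed 2 protein-coding genes (0.0135%) and TGF-β1 alone 129 (0.872%). For CYP24A1 the changes were 4.46 under calcitriol, 0.74 under TGF-β1 and 4.82 under the 2 together. For TGFBI they were 0.34 under calcitriol, 3.27 under TGF-β1 and 3.19 under the 2 together, and for SPRY1 -0.28 under calcitriol, -1.84 under TGF-β1 and -1.78 under the 2 together. The joint value of CYP24A1 lay closer to that under calcitriol, and those of TGFBI and SPRY1 closer to those under TGF-β1. What each agent contributed to the joint change was not tested. IGFBP3 had sizeable values with each agent: 1.64 under calcitriol, 1.95 under TGF-β1 and 2.44 under the 2 together. KRT34 had 1.23 under calcitriol, 1.77 under TGF-β1 and 2.33 under the 2 together, and IL13RA2 0.58 under calcitriol, 0.91 under TGF-β1 and 1.52 under the 2 together. STEAP4 had -0.26 under calcitriol, -1.48 under TGF-β1 and -1.09 under the 2 together, and HPGD -0.27 under calcitriol, -1.94 under TGF-β1 and -1.41 under the 2 together.

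Whether the joint effect departed from the sum of the single effects was tested with the interaction term. Of the protein-coding genes 0 passed in limma (lowest adjusted p = 0.552), and 624 had an unadjusted p under 0.05 (4.22%). The lowest adjusted p among protein-coding genes was that of IGFBP3, whose joint change was smaller on the log2 scale than the sum of its single effects (interaction -1.14 ± 0.16). With a variance that follows intensity IGFBP3 passed (adjusted p = 9.24e-06), the only gene to do so in any alternative fit. For CYP24A1 the interaction was -0.37 ± 0.50 and for TGFBI -0.43 ± 0.20 (adjusted p = 0.998 and 0.954). With 2 arrays per group such a miss does not show that effects added up.

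**Figure D5:**
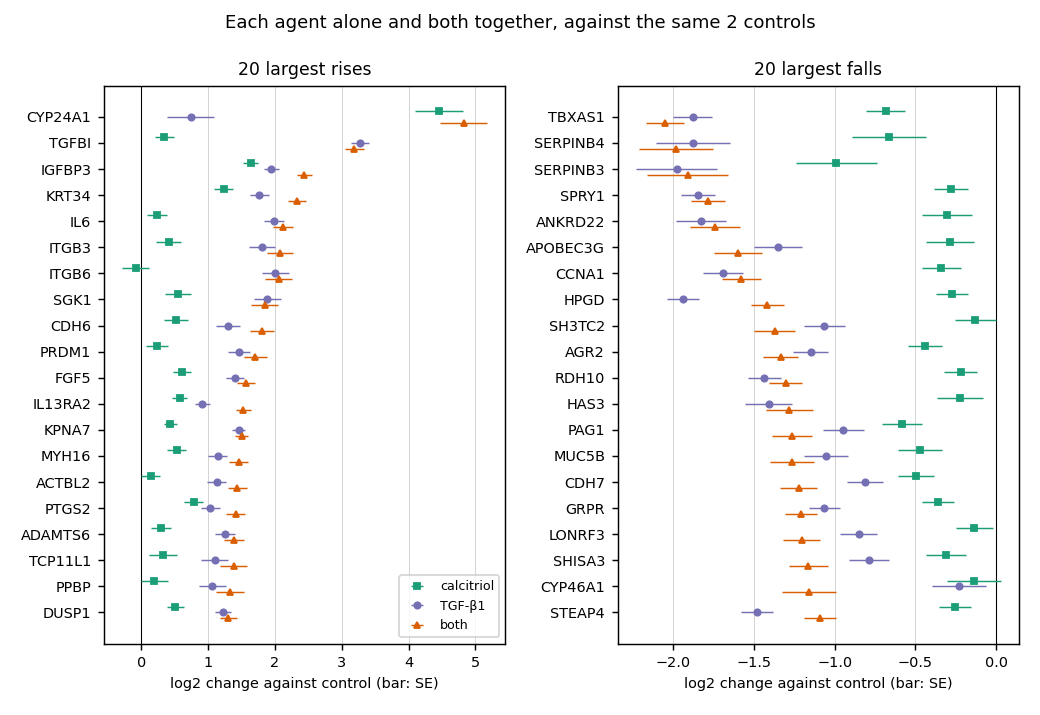
Log2 change against the same 2 controls under calcitriol (squares), TGF-β1 (circles) or the joint treatment (triangles), bars showing the SE, for the 20 largest rises and falls of the combination. CYP24A1 has its high values with calcitriol and with both (4.46 and 4.82), TGFBI with TGF-β1 and with both (3.27 and 3.19), and IGFBP3 has 1.64, 1.95 and 2.44.

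The label of the cells was checked on their markers. KRT8, KRT18, EPCAM, VIM, CDH1 and CAV1 were above background on all 4 arrays, and CTNNA1, the alpha-catenin gene that PC-3 is known to lack, was at background on all 4 (4.04 and 3.68 in control, 3.28 and 3.12 with both agents). KLK3, prostate-specific antigen, which this line is known to make little of, was above background on all 4. Of 9 fibroblast markers 4 were at background on all 4 arrays and 1 was above it on all 4, with mean levels of 4.26 and 4.41 in control and 4.41 and 4.42 with both agents. For 9 leukocyte markers these counts were 3 and 3, with mean levels of 5.11 and 5.35 in control and 5.03 and 4.99 with both agents, and PTPRC was lower at levels near background (no fold given, adjusted p = 0.0244). Of 10 endothelial markers 3 were at background on all 4 arrays and 6 above, and of 13 neuroendocrine markers 7 and 5. Among the 24 tested markers of fibroblasts, endothelium and neuroendocrine cells 0 changed in limma, and at an unadjusted p under 0.05 neuroendocrine markers gave 1 higher and 1 lower and the other lists 0.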

How the data were processed

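RNA of PC-3 cells was hybridised to 8 Clariom D arrays in 4 groups of 2, taken from the sample titles. The deposited log2 values, 1 per feature and array, were made with RMA, and oligo and limma are also named, without versions, per the submitters' processing notes. Log2 is taken as the base because RMA usually gives it, and the genome build is not given in the sources used here. Of 138745 features the platform's list of probes gives 1 symbol for 36176 and several for 1119, which were left out. Features above 4.34, the 50th percentile, in at least 2 arrays were kept, with the feature of highest mean per gene, which left 23854 genes.

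Group means were estimated from the 8 arrays together with limma 3.58.1, under R 4.3.3 (data.table, version 1.17.8), in a pipeline tested on simulated data. P-values were two-sided, adjusted by Benjamini-Hochberg over 23854 genes, and called under 0.05. The second scaling was cyclic loess over the protein-coding genes. Background is the 95th percentile of an array's negative control features. Where no array of the lower group exceeded it, a fold is given as a minimum relative to background, and folds are omitted where that minimum is under 1 or both groups lay at background.

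Genes were named by rule: the 20 largest rises and falls that passed under both scalings with the higher group above background and both combination arrays beyond both controls, then at most 4 changed members, by size, of each of 51 lists, and the treatment checks. The rule named 116 genes, of which 113 changed. List members given with their values because they did not pass, or beyond the first 4, were added after values were seen. Members and lists (1418 genes, 1217 tested) were chosen with earlier results of these data known. Alternatives covered scaling, filters, feature choice, genes and arrays fitted, variance model, replicate block and leaving out each array. Precision is limited by the number of arrays. Tables and plots used Python 3.11.15 with pandas 2.3.3 and matplotlib 3.10.9.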

Additional observations from a re-analysis of the deposited data

How the results depend on the processing

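With 2 arrays per group the counts depended strongly on single arrays and settings, and 10 protein-coding genes passed in each of the 19 alternatives. Of the 113 changed genes named by rule 106 were tested in all 19, and the other 7 were removed by the stricter filter. None of the 113 changed sign where tested, which for leaving out an array is given by their groups not overlapping and is no support. The main count of 394 protein-coding genes (150 higher, 244 lower; 542 genes of all kinds) became 116 (61 and 55; 134) with no filter on low values, 1380 (337 and 1043; 1811) with a stricter filter and 931 (260 and 671) when only protein-coding genes were fitted. It was 14 (8 and 6; 14) with the 4 arrays of this comparison alone and 2240 (516 and 1724; 2996) with a variance that follows intensity. Scaling moved the split, to 298 higher and 131 lower after cyclic loess (755 genes of all kinds), 250 and 132 after centring (662) and 223 and 170 after rescaling to equal contrast (596). With loess, adjustment over protein-coding genes alone gave 572 (371 higher), a setting added once results were known. RXRA, which did not pass, moved from -0.086 to 0.027 after loess (in both loess fits) and to 0.0041 after centring. Leaving out 1 array gave 13 to 169 protein-coding genes (8 to 84 higher, 5 to 85 lower), 13 to 218 genes of all kinds and 13 to 81 of the 113 named genes. Of those 113 genes 65 passed with no filter and 14 with 4 arrays. With the replicate block 171 passed (85 higher, 86 lower; 213 of all kinds). The labels do not say whether the letters pair samples across groups. Differences of replicate A minus replicate B correlated at -0.084 between control and combination and at 0.081 between control and calcitriol. With 1 difference per gene and group, mostly noise, such values cannot decide whether the letters mark shared experiments. For the interaction 0 genes passed in the fit as designed and 1, IGFBP3, with the intensity-dependent variance. The cause of these differences was not tested beyond the smaller number of arrays or genes in a fit. Signal over background limits genes near it, such as SERPINB3 and SERPINB4, to bounds.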
